A study of Homo sapiens with 12 samples.

Results

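The BTG and TOB genes encode a small family of antiproliferative proteins, and this account follows 4 of them, TOB1, TOB2, BTG1 and BTG3, in 2 Ewing sarcoma cell lines exposed to mithramycin. The members were all probe sets, groups of short oligonucleotides on the array that together measure a transcript, to which the platform annotation gives 1 of these symbols alone. That gave 12 of the 54613 probe sets that are not array controls, and 4 of the 19775 genes they name: 2 for TOB1, 3 for TOB2, 3 for BTG1 and 4 for BTG3. BTG2 belongs to the family by name, but 0 probe sets carry its symbol in the annotation table used here, so it was not analysed. The family was chosen by the mithramycin effect of TOB1, already known to be among the greatest increases in both lines. The drug effects at the members are therefore given as a description, with no test. The comparisons between the lines, and of the drug effect between the lines, were not the rule of that choice and were tested. They share arrays with the drug effects, and for TOB1 the difference of effects is built from the effects that chose the family. The p-values of TOB1 are therefore not independent of the choice.

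The 4 groups were TC71 cells with mithramycin, TC71 cells with solvent control, TC32 cells with mithramycin and TC32 cells with solvent control, each with 3 arrays from 3 cultures that the labels call biological replicates. Both lines are established human lines of Ewing sarcoma, a tumour driven by the EWSR1-FLI1 fusion protein. Mithramycin, a GC-preferring DNA-binding antibiotic, was given at 100 nM for 6 h. Whether the cultures of a group were grown on separate days is not given in the sources used here. Every error therefore rests on the spread between these cultures. The standard errors of effects use a spread pooled over the 4 groups at each probe set and adjusted towards that of all probe sets. They do not show the spread of a single group.

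BTG and TOB proteins share an N-terminal domain that binds the deadenylases CNOT7 and CNOT8, catalytic subunits of the CCR4-NOT complex, which shortens the poly(A) tails of mRNAs. TOB1 and TOB2 also bind the cytoplasmic poly(A)-binding protein PABPC1 and so bring the deadenylase to mRNAs. The proteins slow the cell cycle when they are overexpressed, and the mRNAs of several members are short-lived and respond quickly to growth signals and stress.

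The sequences upstream of the RefSeq starts of TOB1 and BTG1, the 2 members with the greatest drug effects, are shown because mithramycin binds GC-rich DNA. Each is the 250 bases before an annotated start, 5′ to 3′ on the gene's strand in build GRCh38.p14 from RefSeq, with matches to the GC box GGGCGG on either strand in capitals. TOB1 has 2 annotated starts.
TOB1, start nearer the coding sequence, chr17:50866355-50866604, minus strand: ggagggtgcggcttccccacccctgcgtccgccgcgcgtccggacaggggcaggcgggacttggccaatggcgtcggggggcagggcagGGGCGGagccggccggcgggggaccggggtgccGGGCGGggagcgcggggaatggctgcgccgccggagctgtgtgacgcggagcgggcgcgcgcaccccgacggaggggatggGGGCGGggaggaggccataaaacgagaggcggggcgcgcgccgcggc
TOB1, start farther upstream, chr17:50867979-50868228, minus strand: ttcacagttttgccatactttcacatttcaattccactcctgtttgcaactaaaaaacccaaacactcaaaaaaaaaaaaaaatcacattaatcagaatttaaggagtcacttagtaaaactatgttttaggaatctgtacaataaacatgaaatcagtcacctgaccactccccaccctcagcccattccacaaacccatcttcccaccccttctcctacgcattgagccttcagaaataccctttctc
BTG1, chr12:92145847-92146096, minus strand: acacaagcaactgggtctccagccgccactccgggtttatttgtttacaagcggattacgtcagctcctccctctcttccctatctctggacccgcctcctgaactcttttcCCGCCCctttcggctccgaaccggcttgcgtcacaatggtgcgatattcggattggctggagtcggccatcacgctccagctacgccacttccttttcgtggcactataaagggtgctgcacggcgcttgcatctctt
All 4 measured genes had such a window. The window of the nearer TOB1 start was 80.4% G and C and held 3 GC boxes, whereas that of the farther start was 38.4% and held 0. The BTG1 window was 56.4% G and C with 1 GC box, close to the median of 58% over the 35116 windows of all genes. The windows of BTG3 and TOB2 were 78.4% and 68.4% G and C, with 2 GC boxes each. Of all windows, 42.6% held at least 1 GC box and 13.9% held 3 or more. A match is a run of letters and not a measured binding site, and the probe sets do not tell which TOB1 start was used.

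Values are log2 expression as deposited, made by RMA, and a difference of 1 means a doubling. RMA puts the arrays on 1 scale, so every change is relative to the other transcripts on the array. Over all probe sets, replicate arrays had correlations of at least 0.9948. All 7 measured Ewing sarcoma markers, among them CD99, STEAP1 and NKX2-2, lay above the array median on all 12 arrays. Of the markers of other cell types, 4 of 5 epithelial, 4 of 5 endothelial and 3 of 4 blood markers lay below the median on every array, as did 2 of 5 fibroblast markers, COL1A2 and PDGFRA. Of the fibroblast markers, COL3A1 lay above the median on all 12 arrays, DCN on 6 and LUM on 4. The blood marker HBB lay above it on all 12, the endothelial marker PECAM1 on 6 and the epithelial marker ESRP1 on 2. The part of these markers in the results was not tested. A measured rise can reflect more transcript per cell or more cells that carry it, and these cannot be told apart in bulk RNA. The difference between the 3′ and 5′ beta-actin control probe sets, a sign of RNA integrity, was 0.79, 0.86 and 0.99 with mithramycin and 1.9996, 1.08 and 1.28 with control in TC71. In TC32 it was 0.51, 0.67 and 0.62 with mithramycin and 0.74, 0.67 and 0.73 with control. TC71 control replicate 1 stood apart on this measure, and values without it are given for some results of TOB1, BTG1 and BTG3.

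TOB1, which links the CCR4-NOT deadenylase to the poly(A) tail, was higher on every mithramycin array than on any control array of the same line, at both of its probe sets. At 202704_at expression in TC71 was 9.43, 9.48 and 9.48 with mithramycin and 7.89, 8.05 and 7.96 with control. In TC32 it was 9.27, 9.64 and 9.44 with mithramycin and 7.53, 7.53 and 7.45 with control. The mithramycin arrays of both lines thus reached the same range, while the control arrays of TC32 all lay below those of TC71. The log2 difference between mithramycin and control was 1.49 ± 0.09 in TC71 and 1.95 ± 0.09 in TC32 (standard error of the model, n = 3 arrays per group), or 2.82-fold and 3.85-fold.

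The second TOB1 probe set, 228834_at, also separated mithramycin from control arrays in each line. It read 7.74, 7.78 and 7.78 with mithramycin and 6.56, 6.33 and 6.43 with control in TC71. It read 7.83, 7.85 and 7.75 with mithramycin and 6.04, 6.10 and 6.04 with control in TC32. The differences were 1.33 ± 0.07 in TC71, or 1.39 without TC71 control replicate 1, and 1.75 ± 0.07 in TC32. From low to high the groups ran TC32 control, TC71 control and then both mithramycin groups, whose ranges overlapped at each probe set. Across the 12 arrays the 2 sets correlated at 0.99, a description over arrays that share 4 groups. Represented by its brighter set, TOB1 ranked 15th from the top of 19775 genes by drug effect in TC71 and 17th in TC32, which restates why the family was chosen.

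**Figure D1:**
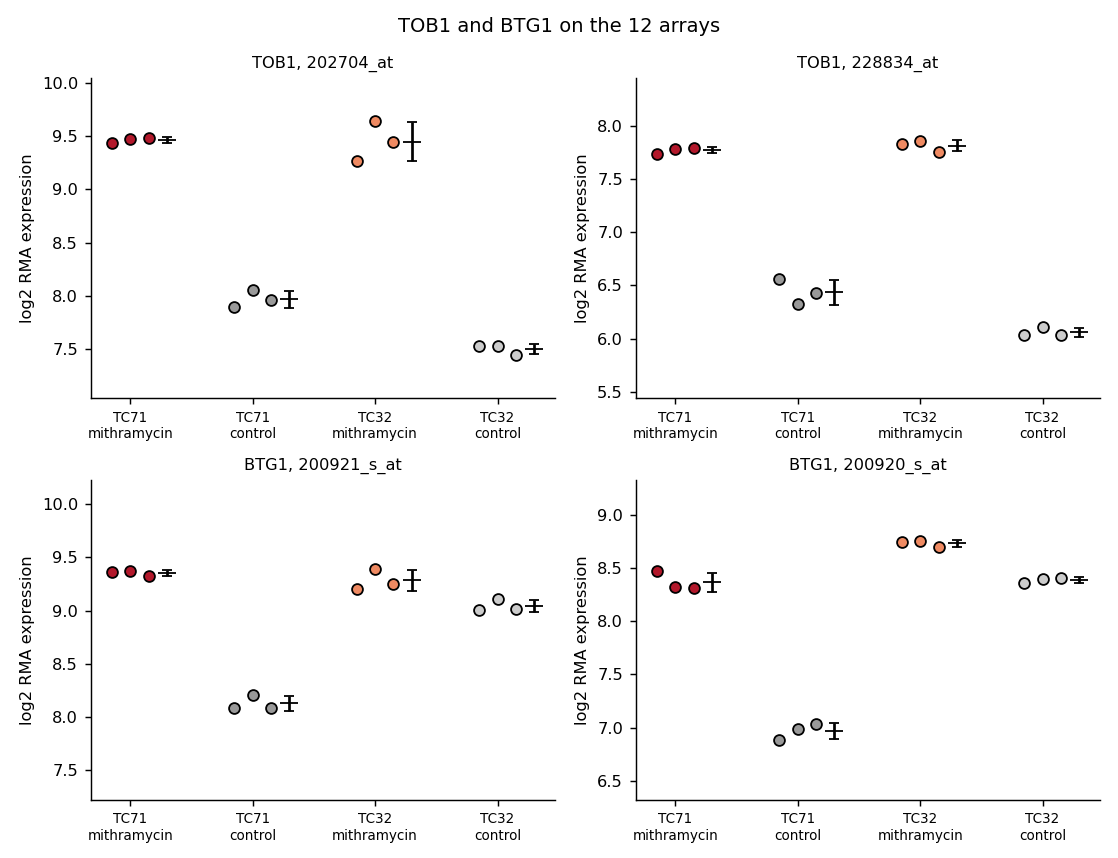
Log2 RMA expression on each of the 12 arrays for the 2 probe sets of TOB1 and the 2 bright probe sets of BTG1, by group; circles are single arrays, and the bar beside them is the mean with the standard deviation of 3 arrays. The vertical span is the same in all panels, and both genes have a control group that stands below the other 3 groups, TC32 control for TOB1 and TC71 control for BTG1.

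BTG1, the founding antiproliferative gene of the BTG branch, had a large drug effect in TC71 and a small one in TC32. At 200921_s_at, TC71 gave 9.36, 9.37 and 9.33 with mithramycin and 8.09, 8.21 and 8.09 with control. TC32 gave 9.21, 9.39 and 9.25 with mithramycin and 9.004, 9.11 and 9.02 with control. The TC71 control arrays stood alone at the bottom, and the ranges of the 2 mithramycin groups overlapped. The difference was 1.23 ± 0.07 (2.34-fold) in TC71 and 0.24 ± 0.07 (1.18-fold) in TC32. The TC32 value depends on the scaling, at 0.105 ± 0.069 with arrays centred on housekeeping genes and 0.088 ± 0.113 with hybridization controls.

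At the second BTG1 set, 200920_s_at, TC71 gave 8.47, 8.32 and 8.31 with mithramycin and 6.89, 6.99 and 7.04 with control. TC32 gave 8.74, 8.75 and 8.70 with mithramycin and 8.36, 8.40 and 8.40 with control. Here the TC71 mithramycin arrays came up to the level of the TC32 controls, with overlapping ranges, and stayed below the TC32 mithramycin arrays. The differences were 1.40 ± 0.07 in TC71 and 0.34 ± 0.07 in TC32, the TC32 value being 0.21 and 0.19 under those scalings. The third set, 1559975_at, lay between 1.94 and 2.41 on all 12 arrays, far below the array medians of 4.38 to 4.47, and its 4 groups overlapped. Without TC71 control replicate 1 the TC71 effect was 1.21 and 1.35 at the 2 bright sets.

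TOB2, the paralog of TOB1, was modestly higher with mithramycin at its brightest set. At 222243_s_at, TC71 read 8.11, 8.10 and 8.18 with mithramycin and 7.77, 7.82 and 7.71 with control. TC32 read 7.83, 8.17 and 7.93 with mithramycin and 7.61, 7.69 and 7.63 with control. The mithramycin arrays lay above the controls in each line, and the effects were 0.36 ± 0.08 in TC71 and 0.33 ± 0.08 in TC32. In TC32 mithramycin replicate 2 stood highest, and the effect without it was 0.24. Centring on housekeeping genes gave 0.23 in TC71 and 0.20 in TC32, and hybridization controls gave 0.18 in TC32.

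The other TOB2 sets showed less. At 221496_s_at the means were 5.36 ± 0.06 with mithramycin and 5.15 ± 0.14 with control in TC71, and 5.55 ± 0.10 with mithramycin and 5.29 ± 0.19 with control in TC32 (SD, n = 3), with overlapping ranges in both lines. The set 234720_s_at lay between 3.13 and 3.91, below the array median on every array, and also overlapped.

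BTG3, a p53- and E2F1-linked member that slows S phase entry, was nearly level. At 213134_x_at, the brightest set, TC71 read 9.78, 9.77 and 9.78 with mithramycin and 9.73, 9.61 and 9.60 with control. TC32 read 9.95, 10.03 and 10.00 with mithramycin and 9.83, 9.82 and 9.74 with control. The groups did not overlap within either line, but the effects were only 0.13 ± 0.06 in TC71 and 0.19 ± 0.06 in TC32. The effects at 205548_s_at were 0.19 ± 0.06 and 0.14 ± 0.06. With arrays centred on housekeeping genes, both sets had effects of 0.06 or less in each line, so the small increases of BTG3 depend on the scaling. The dimmer sets 1556213_a_at and 215425_at had effects of 0.15 ± 0.07 and 0.17 ± 0.08 in TC71, and 0.06 ± 0.07 and -0.07 ± 0.08 in TC32.

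**Figure D2:**
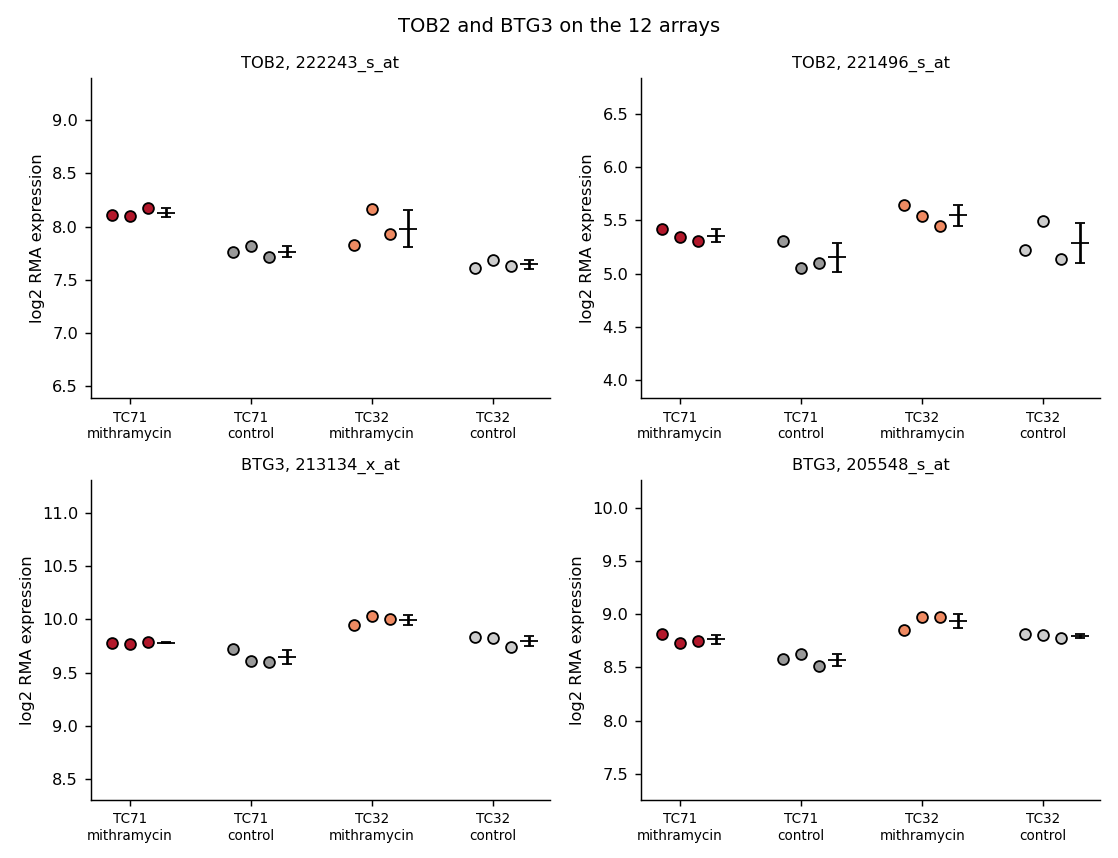
Log2 RMA expression on each of the 12 arrays for the 2 brighter probe sets of TOB2 and of BTG3, by group; circles are single arrays, bars the mean with the standard deviation of 3 arrays. The vertical span equals that of the TOB1 and BTG1 panels, and the shifts with mithramycin are at most 0.36 here.

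Over the family, the mithramycin and control arrays did not overlap at 8 of the 12 probe sets in TC71 and 7 in TC32, against 45.1% and 44.7% of all probe sets. The median drug effect of the 12 sets was 0.20 in TC71 and 0.25 in TC32, beside 0.05 and 0.06 over all probe sets. Since the drug effect of TOB1 chose the family and its 2 sets are in these counts, they are a description. They also leave out the size of the effects, which at the brightest set of each gene spanned 0.13 to 1.49 in TC71 and 0.19 to 1.95 in TC32.

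**Figure D3:**
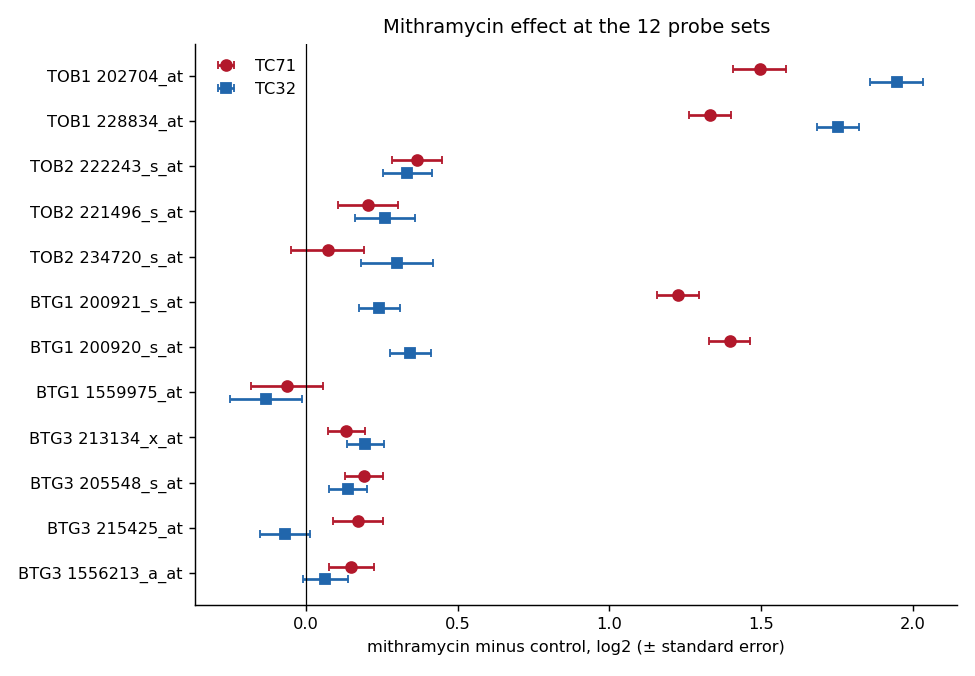
Log2 difference of mithramycin minus control at each of the 12 probe sets, in TC71 (circles) and TC32 (squares), with standard errors of the model. Both TOB1 sets lie farthest right in TC32, at 1.95 and 1.75. In TC71 the 2 bright BTG1 sets, at 1.23 and 1.40, lie near the TOB1 sets, at 1.49 and 1.33. In TC32 these BTG1 sets lie far below TOB1, at 0.24 and 0.34.

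Without mithramycin the lines differed at the 2 bright sets of BTG1 and at both sets of TOB1. Of the 12 member sets, 3 were higher and 4 lower in TC71 control than in TC32 control at an adjusted p of 0.05, while of all probe sets 42.6% were called, 20.7% higher and 21.9% lower. BTG1 was lower in TC71 control by 0.91 at 200921_s_at (95% confidence interval of the log2 difference -1.06 to -0.76, adjusted p = 1.15e-07) and by 1.42 at 200920_s_at (-1.56 to -1.27, adjusted p = 1.01e-09). TC32 control therefore had 1.88 and 2.67 times the BTG1 signal of TC71 control. TOB1 was higher in TC71 control, by 0.47 at 202704_at (0.28 to 0.65, adjusted p = 5.31e-04) and 0.38 at 228834_at (0.23 to 0.53, adjusted p = 5.05e-04). With beta-actin integrity added as a covariate, the value at 228834_at was 0.21 (adjusted p = 0.138).

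BTG3 gave a mixed picture between the controls. It was lower in TC71 control at 205548_s_at by 0.22 (adjusted p = 9.76e-03) and at 215425_at by 0.47 (adjusted p = 3.37e-04), but higher at 1556213_a_at by 0.56 (adjusted p = 2.49e-05). The brightest set, 213134_x_at, stood at -0.15 (adjusted p = 0.0632). It was called lower in 3 of 20 alternatives, among them the fit without TC71 control replicate 1, which gave -0.19. With arrays centred on housekeeping genes the value at 205548_s_at was -0.036 (adjusted p = 0.662), so its call rests on the scaling. With the beta-actin covariate neither 205548_s_at (adjusted p = 0.136) nor 215425_at (-0.33, adjusted p = 0.0779) was called. No TOB2 set was called between the controls, and the value at 222243_s_at was 0.12 (-0.05 to 0.30, adjusted p = 0.269). At that set, however, every TC71 control array lay above every TC32 control array. With arrays centred on housekeeping genes it was called, at 0.31 (adjusted p = 0.00754).

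With mithramycin the 2 lines lay closer together in TOB1 and BTG1. TOB1 differed between TC71 and TC32 mithramycin arrays by 0.02 at 202704_at (-0.17 to 0.20, adjusted p = 0.91) and by -0.04 at 228834_at (-0.19 to 0.11, adjusted p = 0.654). BTG1 differed by 0.07 at 200921_s_at (-0.08 to 0.22, adjusted p = 0.446) and remained lower in TC71 by 0.36 at 200920_s_at (-0.51 to -0.22, adjusted p = 4.92e-04). The misses at TOB1 and 200921_s_at do not show equal levels, and they depend on the scaling. Centring on hybridization controls raised the median probe set of TC71 against TC32 under mithramycin by 0.30, and TOB1 then stood at 0.31 and 0.26 and 200921_s_at at 0.37, all called, whereas 200920_s_at stood at -0.065 and was no longer called (adjusted p = 0.614). In all, 1 member set was called higher and 4 lower in TC71 mithramycin, beside 43% of all probe sets, 20.6% higher and 22.4% lower. Those were 200920_s_at of BTG1 and the 4 sets of BTG3, with 1556213_a_at higher by 0.65 (adjusted p = 6.8e-06) and the other 3 lower by 0.17 to 0.23. The higher call of 1556213_a_at held in all 20 alternatives. In TC32, however, this set lay between 4.29 and 4.57, near the array medians. Over the 12 arrays it also ran against the other BTG3 sets, with Pearson r of -0.56, -0.60 and -0.76. The lower calls were lost in 11 of 20 alternatives at 205548_s_at, 7 of them with 1 array left out, in 10 of 20 at 215425_at, 4 of them with 1 array left out, and in 2 of 20 at 213134_x_at. Centring on housekeeping genes or on hybridization controls ended all 3.

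**Figure D4:**
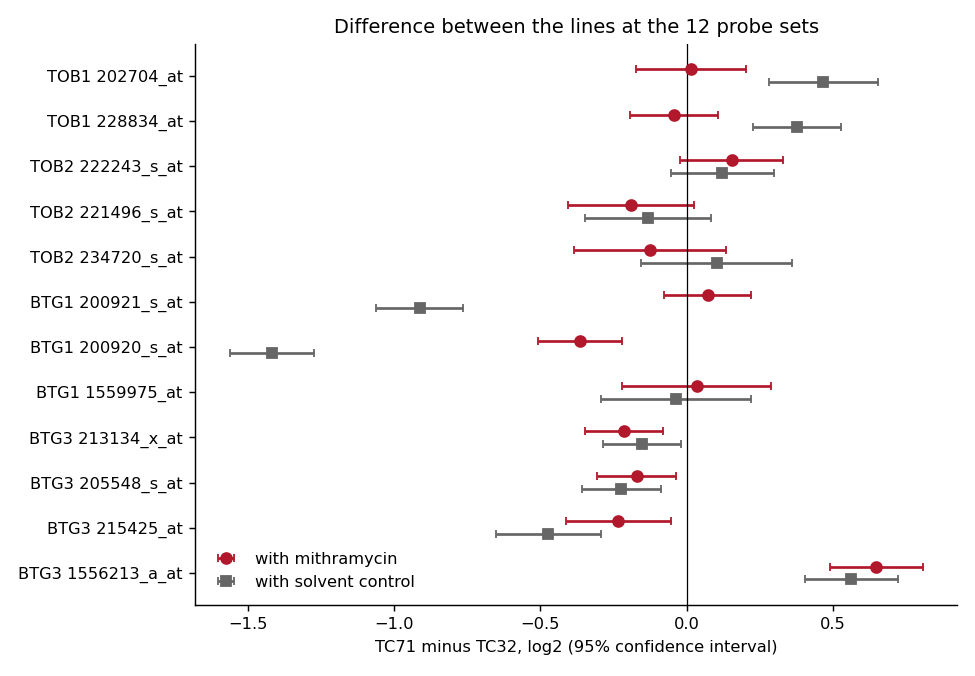
Log2 difference of TC71 minus TC32 at each of the 12 probe sets, between the mithramycin groups (circles) and between the control groups (squares), with 95% confidence intervals. For TOB1 and the 2 bright BTG1 sets the control difference lies away from 0 and the mithramycin difference near it, except for 200920_s_at. The values of BTG3 and TOB2 change less, the most at 215425_at, from -0.47 to -0.23, and at 234720_s_at, from 0.10 to -0.13.

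The drug effect itself differed between the lines at 4 of the 12 sets, 2 higher and 2 lower in TC71, against 6.86% of all probe sets, 4.38% higher and 2.48% lower. For BTG1 the TC71 effect exceeded the TC32 effect by 0.98 at 200921_s_at (0.77 to 1.19, adjusted p = 6.28e-05) and by 1.05 at 200920_s_at (0.85 to 1.26, adjusted p = 2.93e-05). Both calls held in all 20 alternative fits that kept these sets, including the fit without TC71 control replicate 1, which gave 0.96 and 1.01, and that with beta-actin integrity added as a covariate, which gave 0.95 and 0.98. For TOB1 the TC71 effect was smaller, by 0.45 at 202704_at (-0.72 to -0.19, adjusted p = 0.0433) and 0.42 at 228834_at (-0.63 to -0.21, adjusted p = 0.0204). The TOB1 calls were close to the threshold, and both were lost with the replicate number as a block (adjusted p = 0.0664 and 0.0569) and with centring on hybridization controls (adjusted p = 0.396 and 0.384), which leaves the 2 sets of BTG1. With single arrays left out in turn, the first call was lost in 11 of 12 fits and held only without TC32 mithramycin replicate 1. The second was lost in 2, without TC32 control replicate 3 and without TC71 mithramycin replicate 1. Leaving out TC71 control replicate 1 gave -0.49 (adjusted p = 0.0556) and -0.36 (adjusted p = 0.0489). The control arrays of each line enter its drug effect as well as the difference between the controls, so these values are not separate pieces of evidence. Those of TOB1 are also built from the effects that chose the family.

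For TOB2 and BTG3 no difference of the drug effect was called. The TC71 effect minus the TC32 effect was 0.03 (-0.22 to 0.28) at 222243_s_at of TOB2 and -0.06 (-0.25 to 0.13) at 213134_x_at of BTG3. These intervals reach from a small difference one way to a small difference the other way and leave out a difference as large as that of BTG1.

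The genes whose brightest set followed TOB1 most closely over the 12 arrays were CEP68, a centrosome gene (Pearson r = 0.993), C11orf68 (0.990), GPATCH2L (0.990), the spliceosome gene SNRNP27 (0.989), the antisense transcript ID2-AS1 (0.989) and FGFR1OP2 (0.987). The ranking covered 6080 genes whose mean reached 6 and whose standard deviation reached 0.2. CEP68 was at 0.95 ± 0.07 with mithramycin in TC71 and 1.04 ± 0.07 in TC32 on the log2 scale. For BTG1 the closest were MCL1, an antiapoptotic BCL2 relative (0.973), TTC9C (0.971) and ZNF75A (0.968). MCL1 had an effect of 0.58 ± 0.06 in TC71 and 0.08 ± 0.06 in TC32 and stood lower by 0.37 in TC71 control, an arrangement of groups like that of BTG1. TOB2 was followed most closely by the zinc finger genes ZNF140 (0.979), ZUP1 (0.969) and ZNF302 (0.963), and BTG3 by ZFPL1 (0.980), MRPL28 (0.977) and TRMT6 (0.976). These correlations describe arrays in 4 groups and say nothing of shared control. Among the members, the brightest sets of TOB1 and TOB2 correlated at 0.91, and those of TOB1 and BTG1 at 0.61.

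Among genes of the machinery through which the family acts, CCR4-NOT subunits and their RNA-binding adaptors were more often called lower than higher. Of 12 CCR4-NOT subunits, 9 fell and 1 rose with mithramycin in the mean of both lines, each gene taken by its brightest set, against 20.2% of 19775 genes called lower and 30.9% higher. The list's median was -0.27, beside 0.08 over all genes. This list and those below were chosen with earlier results of these data known, so their adjusted p-values do not follow an independent choice. CNOT6L, a catalytic deadenylase, fell by 0.97 ± 0.07 in TC71 and 1.36 ± 0.07 in TC32 (adjusted p = 2.01e-07 and 6.71e-09), although its 5 sets ranged from -1.16 to 0.01 in the mean of both lines and averaged -0.47. The ubiquitin ligase CNOT4 fell by 0.54 ± 0.06 in that mean (adjusted p = 7.82e-06), whereas 1 of its other sets passed the test upwards and the average over its 5 sets was 0.043.

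The subunits that BTG and TOB proteins bind directly, CNOT7 and CNOT8, were not called lower. CNOT8 rose by 0.63 ± 0.11 in TC71 (adjusted p = 5.57e-04) and 0.33 ± 0.11 in TC32 (adjusted p = 0.0263), and all 3 of its sets were called higher in the mean of both lines. CNOT7 stood at 0.030 ± 0.049 in that mean (adjusted p = 0.644), with 2 of its 6 sets called higher, up to 0.71, and an average over the sets of 0.26 (adjusted p = 2.93e-04).

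Of 8 measured genes of other deadenylases and poly(A)-binding proteins, 3 rose and 3 fell (median -0.03), against 30.9% and 20.2% of all genes. The deadenylase PARN fell by 0.96 ± 0.05 (adjusted p = 1.18e-08) and PAN3, the adaptor of the PAN2 deadenylase, by 0.79 ± 0.05 (adjusted p = 2.4e-08), whereas PABPN1, the nuclear poly(A)-binding protein, rose by 1.32 ± 0.08 (adjusted p = 2.01e-08). PABPC1, the partner of TOB proteins, was at 0.024 ± 0.039 (adjusted p = 0.641).

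Of 14 measured RNA-binding adaptors of the complex, 9 fell and 2 rose by their brightest sets (median -0.38), against 20.2% and 30.9% of all genes. Among those that fell, RC3H1, RC3H2, TNRC6A and TNRC6C also had sets called higher, up to 0.59, 0.29, 0.49 and 0.43. TNRC6B, a scaffold of miRNA silencing, fell by 1.21 ± 0.06 with all 7 of its sets called lower. CPEB2, a cytoplasmic polyadenylation element binding protein, fell by 1.09 ± 0.06, with 2 of its 3 sets called lower and an average over the sets of -0.48. The Pumilio gene PUM2 fell by 1.02 ± 0.05, but without the _s_at and _x_at sets it stood at 0.089. Adjusted p ran from 2.89e-09 to 7.51e-09 for TNRC6B, CPEB2 and PUM2.

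Of 12 decapping and 5′ to 3′ decay genes, 4 were called lower and 3 higher (median -0.01), against 20.2% and 30.9% of all genes. The decapping activators DCP1A and DCP1B moved apart, at -0.43 ± 0.05 (adjusted p = 2.51e-05) and 0.42 ± 0.06 (adjusted p = 6.27e-05), and the exonuclease XRN1 fell by 0.41 ± 0.07 (adjusted p = 2.7e-04). Of the 4 XRN1 sets, 2 passed the test downwards. Averaged over their sets, DCP1A stood at -0.28 and XRN1 at -0.17. Of 8 other known partners 3 fell and 1 rose (median -0.09), against the same shares of all genes. The BMP pathway gene SMAD9 fell by 0.36 ± 0.06 (adjusted p = 1.79e-04), or by 0.20 averaged over its 2 sets, and the kinase MAPK3, which phosphorylates TOB1, rose by 0.29 ± 0.07 (adjusted p = 4.41e-03), a call lost with centring on housekeeping genes (adjusted p = 0.0866). CCND1, the cyclin D1 gene that TOB1 is known to repress, fell more in TC71, where the change was -0.95 ± 0.06, than in TC32, at -0.23 ± 0.06 (difference of effects -0.72, adjusted p = 3.42e-04). Over all 54 measured genes of these lists, 28 fell and 10 rose, again beside 20.2% and 30.9% of all genes. With arrays centred on housekeeping genes 35 fell and 6 rose, a scaling that shifts the median effect of all probe sets by -0.13. By the mean of probe sets 26 fell and 14 rose, and with the beta-actin covariate 22 fell and 8 rose. The drug effect differed between the lines for some of the 54, higher in TC71 at 7 and lower at 2, against 5.18% and 2.83% of all genes.

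**Figure D5:**
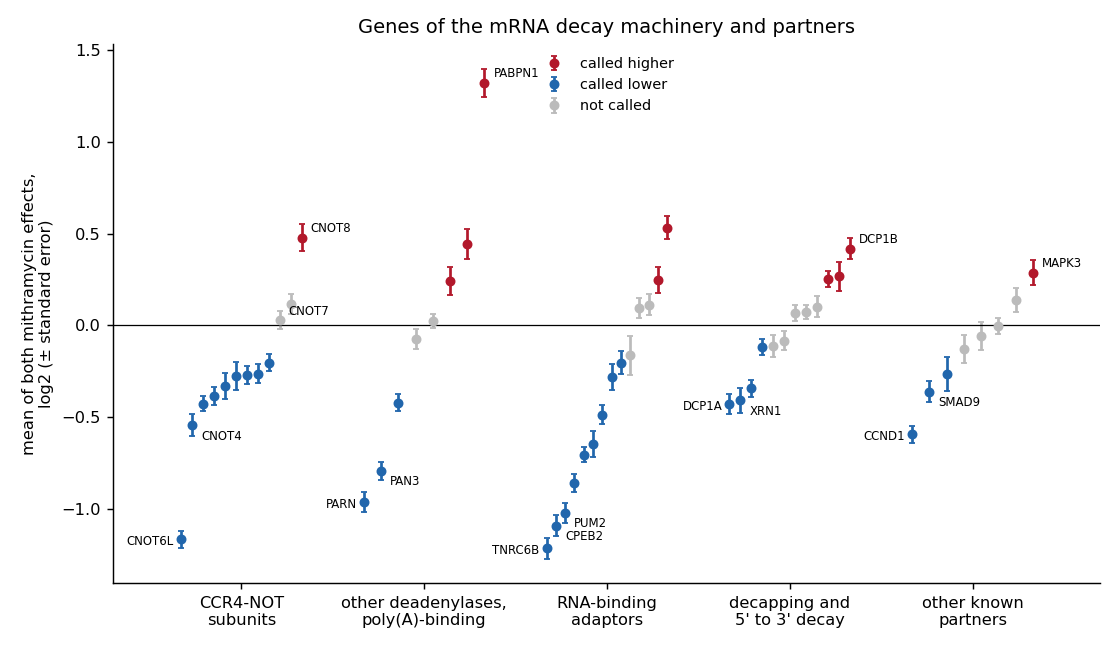
Mean of the TC71 and TC32 mithramycin effects (log2, with the standard error of the model) for each measured gene of 5 lists of mRNA decay machinery and known partners of the family; colours mark genes called higher, called lower or not called at an adjusted p of 0.05. Most CCR4-NOT subunits and RNA-binding adaptors lie below 0, and CNOT8 and PABPN1 lie above it.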

How the data were processed

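Expression was measured on 12 one-colour oligonucleotide arrays, 1 per sample, with groups, dose and time taken from the labels. The deposited values are log2 expression per probe set made by RMA, per the submitters' processing notes; its version is not given in the sources used here, and no detection calls or scan dates were used. RMA largely removes a shift shared by most transcripts. The file holds 54675 probe sets, 62 of them array controls; 41091 of the rest had 1 gene symbol, 1801 several and 11721 none here. Symbols were updated through Entrez identifiers in RefSeq (GRCh38.p14). The 12 arrays entered 1 linear model with a mean per group in limma 3.58.1 (R 4.3.3), fitted to all 54613 non-control probe sets with empirical Bayes moderation and Benjamini-Hochberg adjustment over all of them in each contrast. Adjusted p-values are two-sided. The number of arrays limits the precision, with 8 residual degrees of freedom. A listed gene was read from its brightest probe set. Genes named were all members, the 3 genes with the largest mean effect among those called in each list, CNOT7, CNOT8 and CCND1 (PABPC1 was added after its values were seen), and the genes most correlated with each member's brightest set. The fit was tested on simulated data. Members and lists were chosen with earlier results of these data known. Same-numbered arrays were not treated as pairs, since their deviations from group means correlated between -0.09 and 0.21.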

Additional observations from a re-analysis of the deposited data

Results flagged for a closer look

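The drug effect differed between the lines at both bright probe sets of BTG1 and at both sets of TOB1, in opposite directions. The TC71 effect minus the TC32 effect was 1.05 at 200920_s_at and 0.98 at 200921_s_at of BTG1, where every array with mithramycin lay above every control array in each line. It was -0.45 at 202704_at and -0.42 at 228834_at of TOB1, also with no overlap in either line. At all 4 sets the line with the lower control level had the larger effect. The control arrays enter both quantities, so this is not a separate result, and the sets are those of BTG1 and TOB1 alone. The beta-actin 3′ minus 5′ difference was lower with mithramycin than with control in TC71 and with it as a covariate the TOB1 values were -0.49 (adjusted p = 0.0986) and -0.32 (adjusted p = 0.115).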

How the results depend on the processing

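Up to 22 alternatives were run for each result. The TOB1 effect at 202704_at ranged from 1.36 to 1.58 in TC71 and from 1.79 to 2.04 in TC32, and from 1.46 to 1.54 and 1.85 to 2.04 when 1 array was left out. It was 1.36 in TC71 and 1.81 in TC32 with arrays centred on housekeeping genes and 1.79 in TC32 with centring on hybridization controls. These scalings shift all probe sets, by a median of -0.13 in TC71 and -0.14 in TC32 for housekeeping genes, and by 0.08 and -0.15 for hybridization controls. The 4 sets with a different drug effect became 2, those of BTG1, with centring on hybridization controls, with the beta-actin covariate and with the replicate block, and 2, those of TOB1, without _x_at and _s_at sets, where the BTG1 sets are not tested. They numbered 2 to 4 when 1 array was left out. The 7 sets called between the controls became 4 with the beta-actin covariate and 4 without _x_at and _s_at sets, and 7 to 8 when 1 array was left out. The 5 sets called between the mithramycin groups became 3 with centring on medians, the beta-actin covariate or a mean of at least 6, 2 without _x_at and _s_at sets, and 3 to 5 when 1 array was left out. Genes of the decay lists called higher numbered 6 instead of 10 with centring on housekeeping genes. Directions turned for the difference between the mithramycin groups at 205548_s_at of BTG3 (0.023 with centring on housekeeping genes, 0.13 on hybridization controls), and with hybridization controls at 213134_x_at (0.085) and 215425_at (0.066) of BTG3 and at 228834_at of TOB1 (0.26). CNOT4 turned to 0.043 with the mean of probe sets and PUM2 to 0.089 without _x_at and _s_at sets. Replicate numbers do not pair the samples by label, and 1 of 6 arrays correlated best with its own number. The replicate block left both BTG1 calls and ended both TOB1 calls of the difference of effects (adjusted p = 0.0664 and 0.0569), and as a random effect it left 7 and 5 sets called between the lines. The cause of these changes was not tested. No detection calls were used, so signal over background is unknown, and 2 of the 12 sets lay below the median of every array.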

Other observations

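BTG1-DT, the divergent transcript of BTG1, was singled out after its values were seen. Its set 244429_at read 5.04, 4.75 and 4.87 with mithramycin and 4.33, 4.45 and 4.76 with control in TC71, and 4.99, 4.98 and 4.71 with mithramycin and 4.44, 4.49 and 4.62 with control in TC32. The differences were 0.37 ± 0.12 in each line (adjusted p = 0.0286 in TC71 and 0.0235 in TC32). Neither the difference between the controls (adjusted p = 0.981) nor that of the drug effect (adjusted p = 0.998) was called. The signal lay close to the array medians, and the calls were lost in 8 of 19 alternatives in TC71 and 6 of 19 in TC32. TOB1-AS1, the antisense neighbour of TOB1, lay below the median on all 12 arrays.

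Among the RNA-binding adaptors of CCR4-NOT, ZFP36L1, which recruits the deadenylase to AU-rich elements, averaged 7.43 ± 0.07 with mithramycin and 6.90 ± 0.17 with control in TC71, and 8.41 ± 0.17 with mithramycin and 8.44 ± 0.11 with control in TC32 (SD, n = 3). It was lower in TC71 control than in TC32 control by 1.54 ± 0.10 (adjusted p = 3.74e-08), and this held in all 20 alternatives. Its drug effect was larger in TC71 by 0.56 ± 0.15 (adjusted p = 0.037), and leaving out single arrays ended this call 9 times in 12. It was singled out after its values were seen. The TC71 effect minus the TC32 effect was also called above 0 for NANOS1 (0.68), ZFP36L2 (0.61), TOE1 (0.57), EIF4ENIF1 (0.52), PUM2 (0.49) and CNOT6L (0.40), with adjusted p from 2.37e-03 to 0.02. ZFP36L2, TOE1 and EIF4ENIF1 fell in TC32, by 0.79, 0.71 and 0.60, and were not called in TC71. PUM2 and CNOT6L fell in both lines, and NANOS1 rose by 0.45 in TC71 and fell by 0.23 in TC32.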
